A study of Sus scrofa with 11 samples.

Results

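The lysosomal cathepsins and cystatins are the proteases of the lysosome and their protein inhibitors, and they were read here in the *M. semimembranosus* (SM muscle) of pigs fed a low protein (LP) or a high protein (HP) diet. The members were 9 listed genes, namely CTSB, CTSD, CTSH, CTSK, CTSL, CTSS, CTSZ, CST3 and CSTB, and every probe set whose platform annotation gave 1 of these symbols alone was taken. This gave 12 probe sets of the 23999 tested, for 8 of the 9 genes. CTSL had no probe set under its own symbol and was dropped. A probe set is a group of short probes on the array that together give 1 expression level for a transcript, and all levels below are the authors' values on a log2 scale, on which a difference of 1 is a doubling. A gene with several probe sets was read by its brightest, and the dimmer ones are given beside it. No level of 1 gene was set against that of another, since probes differ in how strongly they bind.

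The animals were purebred Duroc gilts, blocked on their initial body weight, penned in groups and fed isocaloric diets for 63 days of the finishing period. The HP diet held 217 g/kg crude protein and 13.0 g/kg lysine and was fed to 6 gilts, and the LP diet held 128 g/kg crude protein and 7.0 g/kg lysine and was fed to 5. Expression was measured on 11 Affymetrix Porcine Genome arrays, 1 for every pig, so the pig was the replicate. The sources used here do not say which pig had which weight block or pen, and a difference between pens cannot be told apart from one between diets where pen and diet coincide.

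Cathepsins are made as inactive precursors, reach the lysosome through the sorting route of the cell and become active in its acid interior, where they degrade proteins delivered by autophagy and endocytosis. Some, such as cathepsins B, D, H and L, are found in most cells, muscle fibres included, whereas cathepsins K, S and Z are best known from osteoclasts, macrophages and other phagocytes or antigen presenting cells. Cystatins bind cysteine cathepsins tightly and block them, cystatin C mainly outside the cell and cystatin B mainly in the cytosol. In a piece of muscle the RNA of fibres and of the cells between them is mixed, so that fewer cells of a type and less RNA per cell cannot be told apart.

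All 12 member probe sets lay above the highest of 23 negative controls on each of the 11 arrays. On a single array 74.9% to 85.3% of all probe sets did so. The arrays shared a median of 6.72. The RNA of skeletal muscle was detected, with 11 of 11 measured muscle markers above the negative controls on all arrays, a mark that most probe sets reach. The arrays HP 1, HP 2 and HP 4 had the highest 95th percentiles, at 11.74, 11.77 and 11.84, against 11.32 to 11.71 on the other arrays. They were also the brightest in the hybridisation spike-ins, control transcripts added to every array in equal amounts, at 12.04, 12.19 and 12.22 against 11.30 to 11.87.

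None of the 12 member probe sets passed the study's threshold, an unadjusted p of 0.05 or less, between LP and HP in limma. An exact permutation test, which ran through every way to divide the 11 pigs into groups of 6 and 5, gave no p of 0.05 or less for any of them either. Among all probe sets 1227 passed in limma, which is 5.11% of those tested, with 2.97% lower and 2.15% higher in LP, so that a count of 0 among 12 is near the background. After Benjamini-Hochberg adjustment in limma none of the 23999 was under 0.05, and the lowest adjusted p was 0.644. The LP and HP levels overlapped for every member probe set, as they did for all but 0.579% of the probe sets on the array. The fitted difference was below 0 for 9 of the 12, with a median of -0.14 on the log2 scale. Over all probe sets 52.6% were below 0 with a median of -0.02, and among the 6000 brightest 62.1% were below 0 with a median of -0.05. After quantile normalization, which gives all arrays the same distribution of levels, the member median was -0.10 and the other medians were 0.00.

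**Figure D1:**
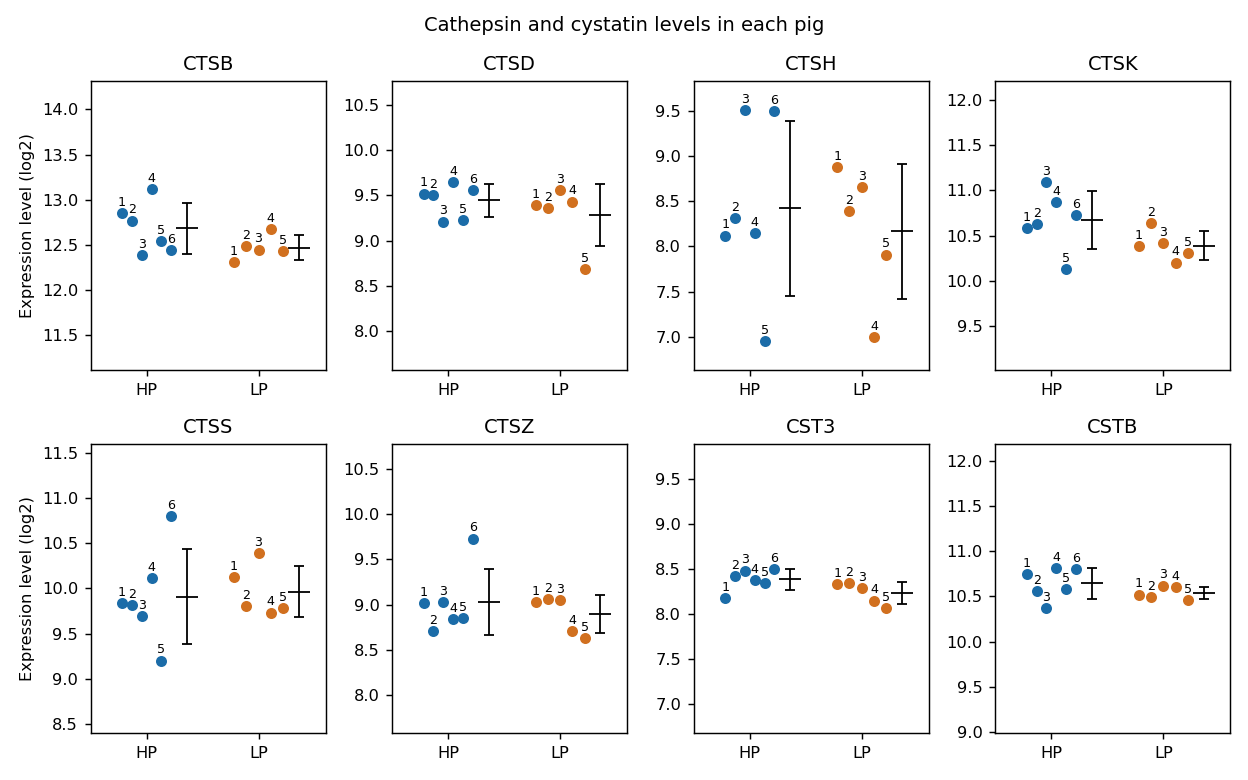
Expression level (log2) of the brightest probe set of each of the 8 genes in every pig, with HP pigs in blue and LP pigs in orange, replicate numbers beside the points, and the diet mean with its SD as a black bar. All panels span a range of the same width. CTSH spread from 6.95 to 9.51, whereas CST3 spread from 8.07 to 8.50, and the diets overlapped in every panel.

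CTSB encodes cathepsin B, a cysteine protease that cuts within proteins and also trims dipeptides from their ends. Its level ran from 12.39 to 13.12 with a median of 12.65 in the HP pigs, and stood at 12.31, 12.49, 12.45, 12.68 and 12.43 in LP 1 to LP 5. HP 4, HP 1 and HP 2 were the highest pigs of all, and the other HP pigs lay among the LP pigs. The difference of -0.21 ± 0.15 (SE) did not pass (limma p = 0.186, exact permutation p = 0.162), with a 95% interval from -0.54 to 0.12, or a ratio of LP to HP from 0.69 to 1.09. The 3 high pigs were the arrays with the brightest spike-ins. The difference was -0.06 after quantile normalization and 0.02 with those 3 arrays left out, an alternative added once the array levels were known.

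CTSD encodes cathepsin D, the main aspartic protease of the lysosome. The HP pigs ranged from 9.21 to 9.65 with a median of 9.51, and the LP pigs were at 9.39, 9.36, 9.56, 9.43 and 8.68. LP 5 was the lowest pig of the study by a wide step, and the other LP pigs lay inside the HP range. The difference was -0.16 ± 0.17 (SE) and did not pass (limma p = 0.364, exact permutation p = 0.409). Without LP replicate 5 it was -0.01.

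CTSH encodes cathepsin H, a cysteine protease that acts mainly as an aminopeptidase. The HP pigs stood at 8.12, 8.31, 9.51, 8.15, 6.95 and 9.50 in replicates 1 to 6, and the LP pigs at 8.88, 8.39, 8.66, 7.00 and 7.91. HP 3 and HP 6 were high, HP 5 and LP 4 were low, and pigs at both ends of the range came from the HP diet. Across all pigs the lowest and the highest level differed 5.90-fold. The diet difference of -0.25 ± 0.49 (SE) was smaller than this spread (limma p = 0.615, exact permutation p = 0.628), and its 95% interval, from -1.34 to 0.83, allows a ratio of LP to HP from 0.40 to 1.78. It was 0.04 without LP replicate 4.

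CTSK encodes cathepsin K, the collagen-degrading protease of osteoclasts. Its HP levels ran from 10.13 to 11.09 with a median of 10.68, and its LP levels were 10.38, 10.64, 10.42, 10.20 and 10.31. All 5 LP pigs lay below the HP mean of 10.67 ± 0.32 (SD, n = 6), but the lowest pig of all was HP 5. The difference was -0.28 ± 0.17 (SE), a ratio of 0.82, and did not pass (limma p = 0.121, exact permutation p = 0.113). Without HP replicate 5 it was -0.39 and passed in limma, the only member probe set to do so under any setting run. After quantile normalization the difference was -0.26.

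CTSS encodes cathepsin S, which cleaves the invariant chain of MHC class II in antigen presenting cells. On its brightest probe set the HP pigs stood at 9.84, 9.81, 9.69, 10.11, 9.20 and 10.80 and the LP pigs at 10.12, 9.80, 10.39, 9.73 and 9.78. HP 6 was the highest pig and HP 5 the lowest, with all LP pigs between them. The difference was 0.05 ± 0.25 (SE) with a 95% interval from -0.51 to 0.62 (limma p = 0.838, exact permutation p = 0.846). The second probe set differed by -0.24 ± 0.26 (SE) and the third by 0.02 ± 0.27 (SE), and neither passed (exact permutation p = 0.448 and 0.937). The sign of the CTSS difference thus varied between probe sets, and all 3 intervals included 0. The 3 probe sets ordered the pigs in part alike after removal of the diet means, with Pearson r from 0.78 to 0.85 (permutation p from 0.00064 to 0.00594) and Spearman rho from 0.47 to 0.76 (permutation p from 0.00862 to 0.147) over 11 pigs.

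CTSZ encodes cathepsin Z, a carboxypeptidase abundant in monocytes and macrophages. The HP pigs were at 9.02, 8.71, 9.03, 8.84, 8.85 and 9.73 and the LP pigs at 9.03, 9.06, 9.05, 8.71 and 8.63. HP 6 stood apart above the rest, and the remaining pigs of both diets covered nearly the same range. The difference of -0.13 ± 0.19 (SE) did not pass (limma p = 0.491, exact permutation p = 0.589) and was 0.01 without HP replicate 6.

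CST3 encodes cystatin C, the secreted inhibitor of cysteine cathepsins. Its brightest probe set gave HP levels from 8.18 to 8.50 with a median of 8.40 and LP levels of 8.33, 8.34, 8.29, 8.15 and 8.07. All 5 LP pigs were below the HP mean of 8.38 ± 0.12 (SD, n = 6), while HP 1 was lower than LP 1, LP 2 and LP 3. The difference was -0.15 ± 0.10 (SE) and did not pass (limma p = 0.190, exact permutation p = 0.0714). The 95% interval ran from -0.38 to 0.08, a ratio of LP to HP between 0.77 and 1.06. The dimmer probe sets differed by 0.00 ± 0.13 (SE) and -0.07 ± 0.14 (SE), so the lower LP mean was not seen on all 3. With the diet means removed, the brightest had an r of 0.74 with the middle probe set (permutation p = 0.00917). With the dimmest it had an r of 0.25 (permutation p = 0.453) and a rho of 0.10 (permutation p = 0.775). The dimmer probe sets had an r of 0.81 with each other (permutation p = 0.00221). The CST3 relations below rest on the brightest probe set alone.

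CSTB encodes cystatin B, also called stefin B, the cytosolic inhibitor. The HP pigs ran from 10.37 to 10.81 with a median of 10.66, and the LP pigs stood at 10.52, 10.49, 10.62, 10.60 and 10.46. The LP pigs were close together, with an SD of 0.07, and HP 3 was the lowest pig. The difference of -0.11 ± 0.11 (SE) did not pass (limma p = 0.364, exact permutation p = 0.219).

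**Figure D2:**
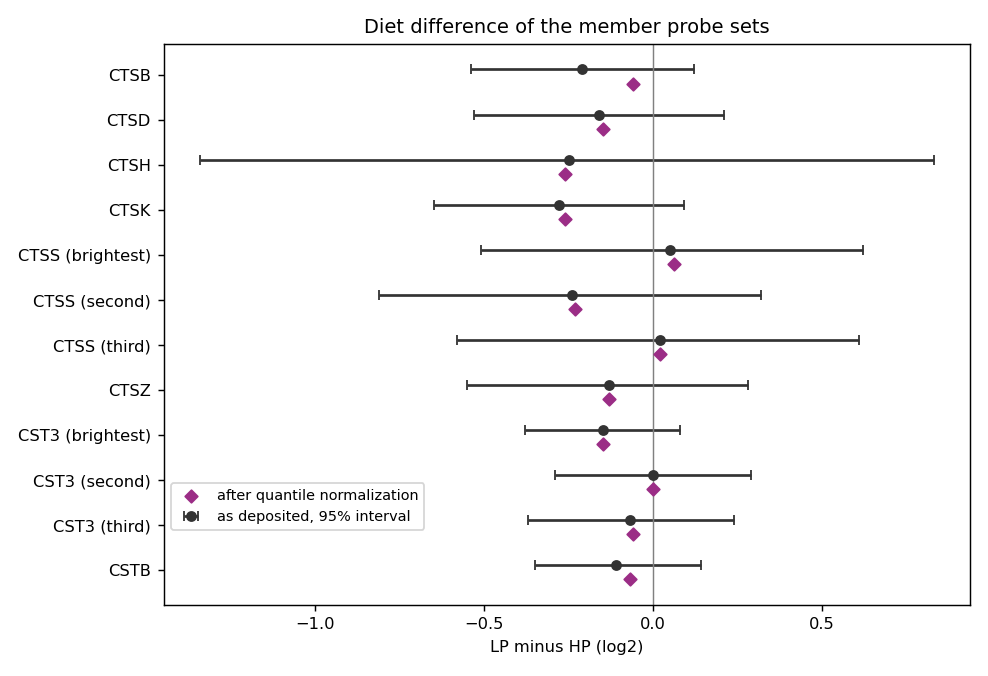
LP minus HP (log2) of the 12 member probe sets. Circles with bars are the fitted difference with its 95% interval on the deposited levels, and diamonds are the difference after quantile normalization. Every interval includes 0, the widest is that of CTSH, from -1.34 to 0.83, and the circle and the diamond lie farthest apart for CTSB, at -0.21 and -0.06.

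The cathepsins found in most cells were set beside those best known from phagocytes, in classes taken from general knowledge. Earlier results of these data were known when the lists were made. The classes do not separate the cells of the sample. CTSH of the muscle-wide class had an r of 0.81 with the macrophage markers described below, whereas CTSB and CTSD had -0.15 and 0.32. The muscle-wide class held CTSB, CTSD and CTSH, with a median difference of -0.21 and all 3 below 0. The phagocyte-type class held CTSK, CTSS and CTSZ, with a median of -0.13, a range from -0.28 to 0.05 and 2 of 3 below 0. Both cystatins were below 0, with a median of -0.13. After quantile normalization the medians were -0.15, -0.13 and -0.11, so the classes lay closer together. With HP 1, HP 2 and HP 4 left out they were -0.05, -0.26 and -0.12, and the order of the cathepsin classes turned. It also turned without HP replicate 4, at -0.12 for the muscle-wide and -0.17 for the phagocyte-type class, and without HP replicate 2, at -0.19 and -0.20. The phagocyte-type median was 0.01 without HP replicate 6. The replicate block gave the same 0.01 by design, since HP 6 has no LP pig of its number and does not enter that difference. No test was made over the members of a class, which are not replicates of a diet, and a difference between the classes was not tested.

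Averaged over a class as deviations from each gene's mean, the pigs separated more than the diets did. HP 5 was the lowest pig in both cathepsin classes, at -0.52 for the muscle-wide and -0.42 for the phagocyte-type genes, and HP 6 was the highest, at 0.41 and 0.61. LP 4 and LP 5 were also low in both, at -0.39 and -0.42 for the muscle-wide genes and -0.27 and -0.24 for the phagocyte-type genes. The muscle-wide values of HP 5, HP 6 and LP 4 came mostly from CTSH, which deviated by -1.36, 1.19 and -1.31, whereas CTSB deviated by -0.05, -0.15 and 0.10 and CTSD by -0.14, 0.19 and 0.06. The low value of LP 5 came mostly from CTSD, at -0.69, and CTSH, at -0.40. The cystatins spread less, from -0.19 in LP 5 to 0.19 in HP 6.

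The spread from pig to pig within a diet differed widely between the genes. CTSH had a within-diet SD of 0.88, above that of 99.6% of the 8013 probe sets at least as bright as the dimmest of these 8. CTSS followed with 0.44, above 93.7%. CTSZ, CTSD, CTSK and CTSB had SDs of 0.31, 0.27, 0.26 and 0.23, above 77.7%, 66.2%, 64.4% and 46.5%. CSTB with 0.14 and the brightest CST3 probe set with 0.12 were among the steadiest probe sets, above 5.0% and 1.9%. The dimmer CST3 probe sets had SDs of 0.18 and 0.20.

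Macrophage markers were then set beside the members, since phagocytes are a known source of cathepsins in muscle. Of 18 listed markers 12 had a probe set, and 10 lay above the negative controls on all arrays, among them CD163, AIF1, TYROBP, C1QA, C1QC and MRC1, whereas MARCO and ITGAM did not. Their mean level ran from 6.76 to 8.23 in the HP pigs and from 7.11 to 7.74 in the LP pigs, a difference of -0.20 (exact permutation p = 0.491). HP 6 had the highest level and HP 5 the lowest, the same pigs that stood at the ends of the brightest CTSS probe set. On the dimmer CTSS probe sets HP 6 was again the highest pig, but the lowest were LP 2 at 8.80 on the second and HP 2 at 8.08 on the third.

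With the diet means removed, CTSS followed the macrophage markers over the 11 pigs with a Pearson r of 0.85 (permutation p = 0.00082, adjusted p = 0.00984) and a Spearman rho of 0.73 (permutation p = 0.0146, adjusted p = 0.0706). Adjusted p-values are by Benjamini-Hochberg over the 24 relations computed, of 8 genes with 3 marker levels. Without HP 5 and HP 6, the pigs farthest from the median, r was 0.68, and within the HP pigs alone it was 0.83. CTSH gave an r of 0.81 (permutation p = 0.00267, adjusted p = 0.0214) and a rho of 0.58 (permutation p = 0.0654, adjusted p = 0.214), with 0.59 without the same pigs and 0.84 within HP. No correlation was computed within the 5 LP pigs. The second and the third CTSS probe set gave r of 0.57 and 0.82 with the macrophage markers (unadjusted permutation p = 0.0682 and 0.00139) and rho of 0.40 and 0.85 (unadjusted permutation p = 0.225 and 0.0014), with r of 0.69 and 0.87 without HP 5 and HP 6, values added after the data were seen.

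CTSK and CTSZ, the other phagocyte-type genes, had r of 0.66 and 0.62 with the macrophage markers and did not pass the correction (permutation p = 0.0255 and 0.0382, adjusted p = 0.0765 and 0.102). Their rho values were 0.57 and 0.39 (permutation p = 0.0712 and 0.236). For CST3, CTSD and CSTB r was 0.42, 0.32 and 0.31, and none passed (permutation p = 0.201, 0.336 and 0.352). Their rho was 0.37, 0.49 and 0.55 (permutation p = 0.261, 0.131 and 0.0877). CTSB had an r of -0.15 (permutation p = 0.666) and a rho of -0.23 (permutation p = 0.501), and its r became 0.48 after quantile normalization. On the deposited levels the relation thus passed over the 24 relations by Pearson r for CTSH of the muscle-wide class and CTSS of the phagocyte-type class. By rank it passed for neither. After quantile normalization CTSK, CTSZ and CSTB passed as well over the 8 relations with these markers, with r of 0.66, 0.64 and 0.69 (permutation, adjusted p = 0.0476 for all 3). CSTB also passed without HP replicate 3, with an r of 0.77 (permutation, adjusted p = 0.0316). Differences between these correlations were not tested. Without HP replicate 5 no gene passed over the 8 relations, with r of 0.76 for CTSS and 0.68 for CTSH (permutation, adjusted p = 0.0538 and 0.0924).

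**Figure D3:**
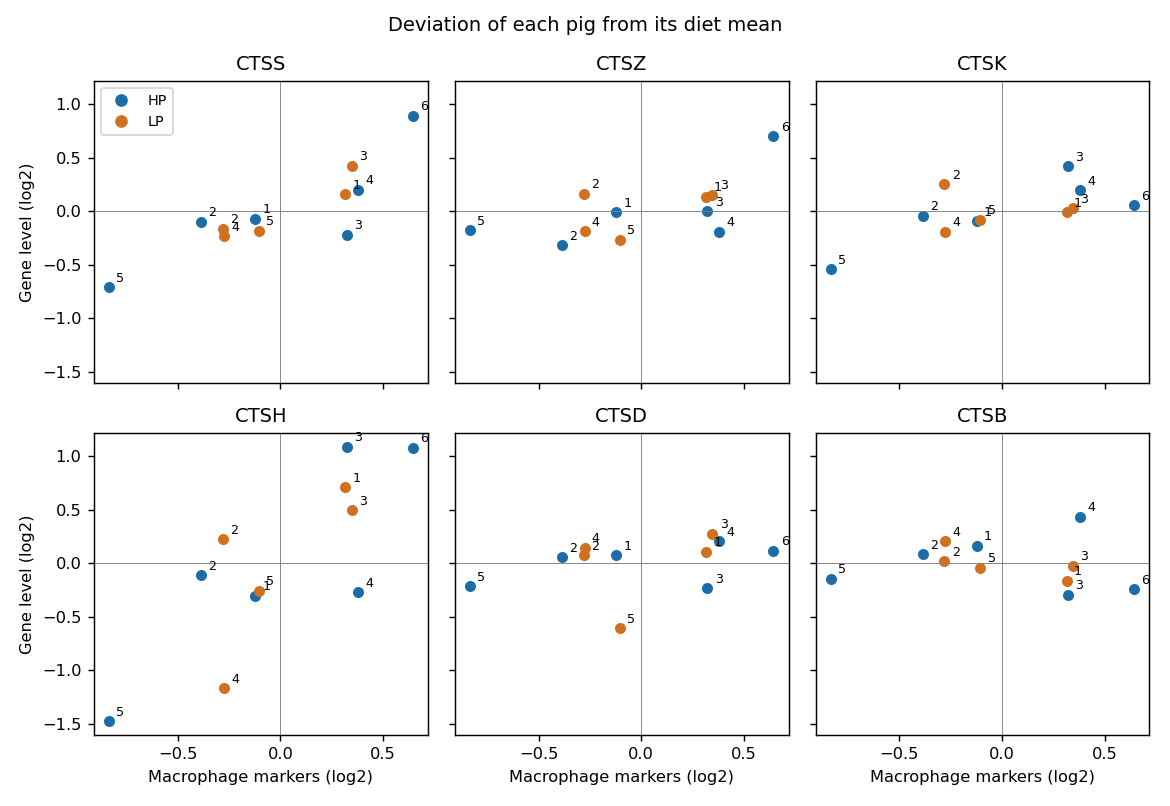
Deviation of each pig from its diet mean in the level of 6 cathepsins (vertical axis, log2) against its deviation in the mean level of 10 macrophage markers (horizontal axis, log2), with HP pigs in blue, LP pigs in orange and replicate numbers beside the points. The points of CTSS (r = 0.85) and CTSH (r = 0.81) run from HP 5 at the lower left to HP 6 at the upper right, and those of CTSB (r = -0.15) show no such order.

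CTSH also had an r of 0.75 with the mean of 9 fibroblast markers, a level added after the data were seen (permutation p = 0.00824, adjusted p = 0.0494). This lay just under the threshold, and the rho of 0.66 did not pass the correction (permutation p = 0.0301, adjusted p = 0.120). Without HP 3 and HP 5, the farthest pigs, r was 0.46. CTSK gave an r of 0.68 (permutation p = 0.0231, adjusted p = 0.0765) and a rho of 0.52 (permutation p = 0.107), but an r of -0.04 without those pigs, so that its relation rested on them. Fibroblast markers ran from 9.53 to 10.27 in HP and from 9.53 to 9.87 in LP (exact permutation p = 0.186). The part of fibroblasts or macrophages in any of these levels was not tested.

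CTSB followed the hybridisation spike-ins. Its r with the mean of 27 spike-in probe sets was 0.87 (permutation p = 0.00041, adjusted p = 0.00984) and its rho 0.88 (permutation p = 0.00061, adjusted p = 0.0146), with 0.86 without HP 2 and HP 4 and 0.88 within HP. After quantile normalization of the CTSB level, with the spike-ins kept as deposited, r was -0.36 (permutation p = 0.281). That step makes the bright end alike on all arrays, and CTSB lay above the 95th percentile of each. It therefore cannot tell what the relation came from, which was not tested. The spike-ins differed between LP and HP by -0.26 (exact permutation p = 0.186), and the mean of the 11 skeletal muscle markers by -0.25 (exact permutation p = 0.219). That muscle mean was also highest on HP 1, HP 2 and HP 4, at 13.80, 13.86 and 13.98, against 13.01 to 13.52 on the other arrays. High levels on these arrays were thus not particular to CTSB. An r of the muscle markers with the spike-ins was not computed. CTSH, CTSZ and CST3 had negative r with the spike-ins, at -0.69, -0.68 and -0.55, which did not pass the correction (permutation p = 0.0203, 0.0207 and 0.0757, adjusted p = 0.0765, 0.0765 and 0.182). By rank the values were -0.75, -0.77 and -0.73 (permutation p = 0.0116, 0.00747 and 0.0147, adjusted p = 0.0706 for all 3).

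**Figure D4:**
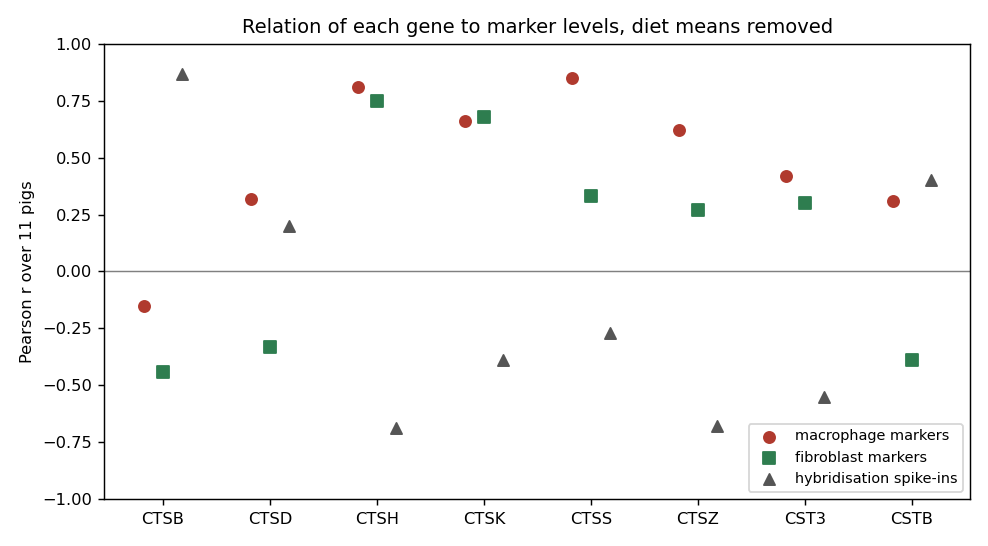
Pearson r over 11 pigs, diet means removed, of each of the 8 genes with the mean level of macrophage markers (circles), fibroblast markers (squares) and hybridisation spike-ins (triangles). CTSB has the highest r with the spike-ins, 0.87, and CTSS the highest with the macrophage markers, 0.85.

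Among the 28 pairs of members no Pearson correlation passed the correction over the pairs (smallest adjusted p = 0.143, for CTSH and CTSK, with r = 0.77 and permutation p = 0.00511, and 0.46 without HP 5 and LP 4). By rank, CTSD with CSTB gave a rho of 0.83 and CTSH with CST3 a rho of 0.82 (permutation p = 0.00295 and 0.00327, adjusted p = 0.0458 for both). The Pearson r of these pairs was 0.62 and 0.65 (permutation p = 0.0401 and 0.0309), and 0.82 and 0.75 without the farthest 2 pigs. CTSK and CTSS, which lie next to each other on the pig genome in RefSeq with 0 genes between them, had an r of 0.40 (permutation p = 0.211) and a rho of 0.42 (permutation p = 0.203).

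The genes whose pattern over the 11 arrays was most like that of each member were looked up among 4672 genes. The diet means were again removed, and the genes are given as a description. The highest of so many r over 11 pigs is large by chance as well, and none was tested. CTSS was closest to FCGR2B, an inhibitory receptor for antibodies (r = 0.94), GMFG (r = 0.92) and CD1.1, a lipid antigen presenting protein (r = 0.90). CTSZ was closest to FCER1G, the signalling chain of Fc receptors and itself 1 of the macrophage markers (r = 0.93), followed by CD1.1 (r = 0.86) and BLNK (r = 0.82). CTSH was closest to S100A11 (r = 0.94), LGALS3, which encodes galectin-3 (r = 0.93), and complement C3 (r = 0.89).

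CTSK stood closest to CALML4 (r = 0.93), ANG, which encodes the ribonuclease angiogenin (r = 0.92), and EPB41L3 (r = 0.91). For CTSB the closest genes were RAMP1, MRPL46 and DYNLRB1, each with an r of 0.98. CTSB also had an r of 0.87 with the spike-ins, and the part of array brightness in these likenesses was not tested. CTSD was closest to RUFY1 (r = 0.92), EFL1 (r = 0.90) and RNASEH2B (r = 0.89). Of the inhibitors, CST3 was closest to PQLC3 (r = 0.93), PTGS1 (r = 0.92) and PLOD3, a lysyl hydroxylase of collagen (r = 0.91), and CSTB to LOC780435 (r = 0.90), OXSM (r = 0.89) and DDX20 (r = 0.89).

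The rest of the lysosome was read from 5 lists of 104 genes, of which 68 had a probe set with a single symbol. Of these 1 was called higher and 1 lower in LP, or 2.94% against the background of 5.11%, and 52 of 68 differences were below 0, or 46 after quantile normalization. CTSV, a cysteine cathepsin closely related to cathepsin L, was the lower gene. RefSeq's pig annotation gives CTSL among the synonyms of this CTSV gene and lists a further gene named CTSL. Its level ran from 11.20 to 11.58 with a median of 11.39 in the HP pigs and was 10.98, 11.15, 11.08, 11.15 and 11.28 in the LP pigs. All LP pigs were below the HP mean, and only LP 5 reached into the HP range. CTSV fell by 0.28 ± 0.11 (SE) on the log2 scale (limma p = 0.0281, exact permutation p = 0.0108, adjusted limma p = 0.962). The difference ranged from -0.32 to -0.20 over 18 alternative settings and passed in 13 of them. It did not pass with the replicate block, without HP 1, LP 1 or LP 3, or with HP 1, HP 2 and HP 4 left out.

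SGSH, the sulfamidase that degrades heparan sulfate, was the higher gene, at 3.86 to 4.88 in HP and at 4.90, 4.71, 4.79, 5.11 and 5.57 in LP, levels below the array median. LP 2 and LP 3 lay inside the HP range and the other LP pigs above it. SGSH rose by 0.62 ± 0.24 (SE) (limma p = 0.0235, exact permutation p = 0.0368, adjusted limma p = 0.953), and did not pass without HP 2 or LP 5, where limma gave p = 0.0504 and 0.0639. No other hydrolase of 18, no other membrane, activator or sorting protein of 16, on which list SGSH also stood, no subunit of the proton pump of 12 and no lysosome or autophagy regulator of 17 passed. The list medians were -0.14 for the hydrolases, -0.08 for the membrane and sorting proteins, -0.05 for the proton pump, -0.08 for the regulators and -0.09 for the other cathepsins and cystatins, beside -0.02 over all probe sets and -0.05 over the 6000 brightest.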

How the data were processed

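RNA of 1 SM muscle sample per pig, 6 HP and 5 LP, was amplified and hybridised to 1 Affymetrix Porcine Genome array each. Each deposited value is a log2 expression level that the authors computed for a probe set in R and Bioconductor, with puma for their own comparison. How background and normalization were handled is not given in the sources used here. Diet groups were taken from the sample labels. Of 24123 probe sets, 124 controls were left out. The platform annotation gives 1 symbol for 10069 of the 23999 tested, several for 198 and none for 13732.

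LP minus HP was fitted over all 23999 probe sets with limma 3.58.1 in R 4.3.3 (constant prior, diet only, two-sided), since puma needs probe-level uncertainty that the levels do not carry. The exact permutation test was two-sided over all 462 splits (smallest possible p = 0.00216). Correlations used Python 3.11.15, numpy 2.4.6, pandas 2.3.3 and scipy 1.17.1, with 100000 random orders of the pigs. The orders mixed pigs of both diets after the diet means were removed, with no allowance for the means fitted. Permutation p-values of correlations near 0.05 can therefore be somewhat too small. The fit was tested on simulated data. Named were all member probe sets, genes of the lysosomal lists at an unadjusted p of 0.05 or less, and the 3 genes most like each member among brightest probe sets above the median. The members and lists were chosen with earlier results of these data known. The alternatives were quantile normalization, leaving out dim probe sets, setting low values to the 20th percentile of their array, a robust prior with a trend, weighted arrays, the replicate block, leaving out each array, the exact test and the mean of a gene's probe sets. Nothing says which pigs shared a pen or weight block, and precision is limited by the number of arrays. RefSeq's pig annotation (Sscrofa11.1) was used for names and neighbours only.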

Additional observations from a re-analysis of the deposited data

Results flagged for a closer look

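Single pigs far from their group were searched for in 24 groups, the 12 member probe sets in each diet, by Dixon's ratio against critical values at 95% of 0.71 for 5 pigs and 0.625 for 6. It picked out 3. Chance picks about 1 in 20 groups, but these groups are not independent, since some are probe sets of the same gene in the same pigs. Whether 3 is more than chance was not tested. CTSD in LP 5 was the lowest LP pig at 8.68, against 9.36 in the nearest, a gap of 0.77 of the LP range. The second CTSS probe set was highest in HP 6 at 10.36, against 9.35 in the nearest HP pig, a gap of 0.72 of the range. On the brightest and the third CTSS probe set HP 6 was not picked out, at 10.80 against 10.11 and 9.48 against 8.90. CTSZ was also highest in HP 6, at 9.73 against 9.03, a gap of 0.69 of the range. The macrophage markers were highest in HP 6 as well, at 8.23, and their part in the CTSS and CTSZ levels of this pig was not tested.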

How the results depend on the processing

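Of 154 alternative values for the differences of the 8 genes, 146 kept their direction and side of the threshold, 7 changed sign without passing and 1 passed, CTSK without HP replicate 5. These are not 154 separate checks. The exact test, the robust prior, the dim filter and the raising of low values left each of these differences as it was, so only the p could change. The replicate block repeats the differences without HP replicate 6, so the change of sign of CTSZ is counted under both. The count over all probe sets was 710 of 12000 tested (5.92%) with dim ones left out, 1884 with HP 1, HP 2 and HP 4 left out, 1066 to 1521 with 1 pig left out and 1232 with the replicate block. The count of member probe sets called was 0 to 1 with 1 pig left out and 0 under every other setting run. With 1 pig left out CTSH ran from -0.55 to 0.04, CTSS from -0.09 to 0.23 and CTSZ from -0.20 to 0.01. CTSZ was 0.01 without HP replicate 6 and therefore also with the replicate block. CTSS was -0.06 as the mean of its probe sets, and CTSB was 0.02 with HP 1, HP 2 and HP 4 left out. CTSC, a cathepsin outside the listed members, ran from -0.38 to 0.04 with 1 pig left out and was 0.32 with HP 1, HP 2 and HP 4 left out. The causes were not tested. Same-numbered pigs correlated at -0.15 to 0.09 over 12000 probe sets, which cannot show whether the replicate numbers carry a weight block.

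The alternatives of the correlations were chosen after seeing the data. Over the 8 relations with the macrophage markers, 2 genes passed by Pearson r, and 5 after quantile normalization (CTSK, CTSZ and CSTB in addition). With 1 pig left out 0 to 4 passed, with 0 without HP replicate 5 and 4 without LP replicate 2. The r of CTSB with these markers was 0.48 after quantile normalization and -0.52 to 0.07 with 1 pig left out, and that with the spike-ins was -0.36 and 0.84 to 0.91. The block, weights, priors and dim filter do not apply to correlations. Levels near the negative controls, 1.96 to 3.58, have the least precision, and no member lies there.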

Other observations

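CTSC, the cathepsin that activates serine proteases of granules in immune cells, belongs to the other cathepsins and was singled out after its values were seen. On its brightest probe set HP 1, HP 4, LP 2 and LP 4 stood at 12.60, 12.66, 12.05 and 12.31, and the other 7 pigs lay between 10.67 and 11.52. The same 4 pigs were the highest on the other 3 CTSC probe sets, with lowest-to-highest ratios of 4.57-fold, 2.30-fold and 6.78-fold beside 3.96-fold on the brightest. The within-diet SD of 0.77 was above that of 99.3% of the 8013 probe sets used for the members. Each diet held 2 of these pigs, and the LP minus HP difference was -0.17 ± 0.43 (SE, exact permutation p = 0.714). Among the 4672 genes searched, those closest to CTSC over the 11 pigs were LAMP1, a lysosomal membrane protein (r = 0.91), and LPCAT3 (r = 0.90).

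LGMN, legumain, which processes cathepsins in the lysosome, and CST6, cystatin M, did not pass between the diets, with differences of -0.02 ± 0.14 (SE, exact permutation p = 0.905) and -0.02 ± 0.21 (SE, exact permutation p = 0.948). LGMN ran from 9.72 to 10.27 in the HP pigs and from 9.70 to 10.16 in the LP pigs. The MHC class II genes, among them the invariant chain that cathepsin S cleaves, had a median difference of 0.00 over 9 genes.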
